A study of Mus musculus with 4 samples.

Results

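Peaks of 3 RNA-binding proteins were described in 9 genes of JAK and STAT signalling in murine bone marrow cells that were lin- and c-Kit+. The labels call them LIC, and the series title places them in a study of acute myeloid leukaemia stem cells. The genes were Jak1, Jak2, Stat2, Stat3, Stat5a, Stat5b, Stat6, Socs2 and Socs3. A peak was taken as a member where its summit lay inside one of these genes in the GENCODE M21 annotation of GRCm38. This gave 30 peaks of 19866 in all, of which 10 of 7069 were in the IGF2BP2 list, 5 of 2834 in the YTHDF2 list and 15 of 9963 in the YTHDC1 list.

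RNA bound by IGF2BP2, by YTHDF2 or by YTHDC1 was immunoprecipitated in 1 library each, and a further library was the input, labelled as having no antibody. All 4 libraries came from cells grown with the cytokines IL-3, IL-6 and SCF and crosslinked with 254 nm light. The labels give no genotype, strain, age or leukaemia driver for these cells and do not say whether they are primary. Since each protein has 1 library, no difference between the proteins has a replicate check, no p-value is given, and every interval covers counting error only.

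In this pathway a cytokine joins its receptor chains, the JAK kinases bound to those chains phosphorylate each other and the receptor, and STAT proteins dock there, are phosphorylated and move to the nucleus as dimers to switch genes on. SOCS proteins are made in response and dampen the signal. In blood progenitors IL-3 is known to act mainly through JAK2 and STAT5, and IL-6 through JAK1 and STAT3. The 3 proteins read m6A, a methyl mark on adenosines in RNA. IGF2BP2 is known for stabilising mRNA, YTHDF2 for speeding its decay and YTHDC1 for roles in the nucleus, including splicing and export.

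A peak was present in 5 of the 9 genes, where 23.8% of all protein-coding genes had one in some list. In these genes IGF2BP2 and YTHDF2 peaks sat mainly in coding sequence, and YTHDC1 peaks sat almost wholly in introns. Of the 15 YTHDC1 peaks, 10 were in Jak1 and 4 in Stat3, so their place mostly describes these 2 genes. Jak1 and Stat3 had peaks of all 3 readers. Stat6 had peaks of IGF2BP2 and YTHDF2, Stat5b of YTHDF2 and YTHDC1, and Stat5a of IGF2BP2 alone. Jak2, Stat2, Socs2 and Socs3 held 0 peaks in every list. By reader, 4 of 9 genes had an IGF2BP2 peak, where 12.8% of all 22028 protein-coding genes had one. For YTHDF2 the count was 4 of 9, where 7.26% of all genes had a peak. For YTHDC1 it was 3 of 9, where 19.9% of all genes had one. A peak in all 3 lists was found in 2 of 9 genes and in 5.1% of all genes, and no peak in any list in 4 of 9 genes and in 76.2% of all genes. With peaks of a fold of at least 5 alone, 1 of the 9 genes had a peak in the IGF2BP2 list, 1 in the YTHDF2 list and 2 in the YTHDC1 list, and 1 was in all 3. At that fold 1767, 889 and 3182 of all 22028 protein-coding genes had a peak in these lists, in the same order. With lists of equal length 0 were in all 3. Expression was not measured in these lists, and transcripts present in more copies give more fragments, so its part in these counts was not tested. As in any bulk sample, fewer cells with a transcript and less RNA per cell cannot be told apart.

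Most of these peaks were weak within their own lists. The authors' fold compares the pileup of fragments at the summit with the local background. Over the IGF2BP2 peaks in these genes its median was 3.94, against 5.92 in the full list. The YTHDF2 median was 3.96, against 5.63, and the YTHDC1 median 5.15, against 6.01. The pileup was 3 fragments or fewer at 6 of the 10 for IGF2BP2, at 3 of the 5 for YTHDF2 and at 5 of the 15 for YTHDC1, where shares in the full lists were 27.8%, 32.8% and 23.4%. A pileup of 3 has an exact Poisson 95% interval of 0.619 to 8.77. Equal folds recur among these peaks because low pileups over the lowest background of a list give 1 value. The fold of 3.94 found at Jak1, for instance, was shared by 1038 IGF2BP2 peaks.

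**Figure D1:**
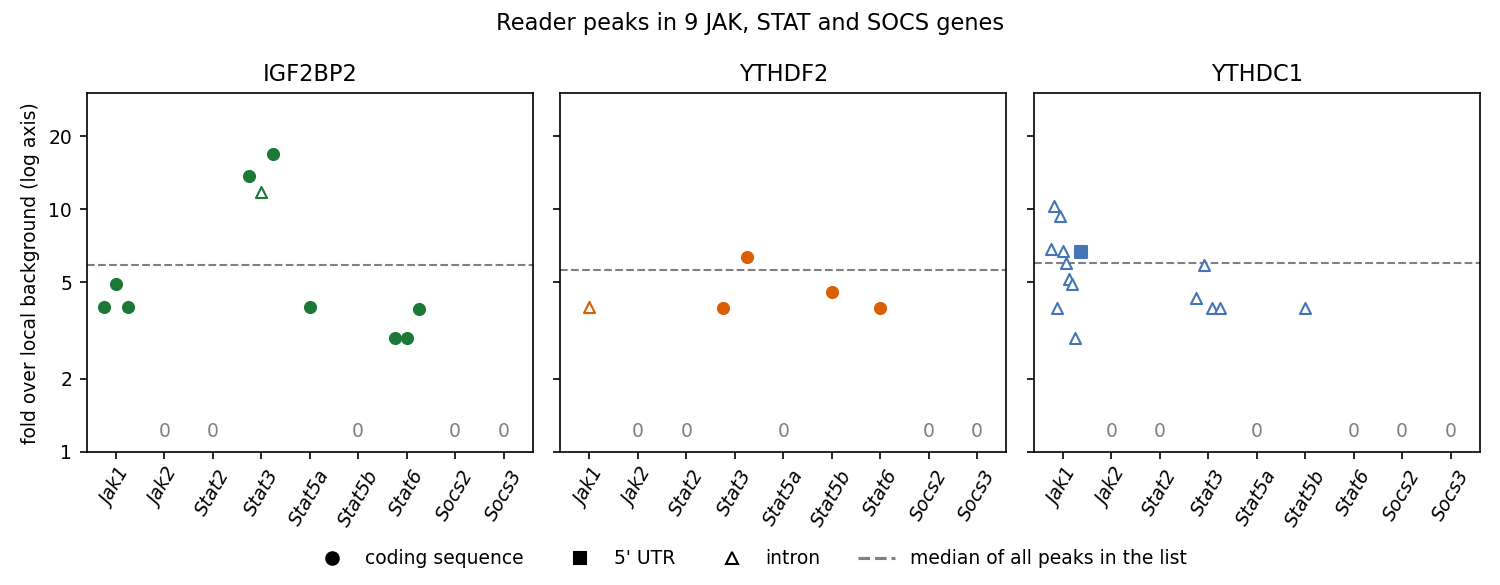
Fold of each peak over its local background (log axis, a ratio without unit) for the 9 genes, with 1 panel per reader and 1 point per peak, and a grey 0 for a gene without a peak. The 3 Stat3 peaks in the IGF2BP2 panel, at 11.8 to 17.0, stand above the dashed list median of 5.92, and the YTHDC1 points are open triangles (introns) apart from 1 square in Jak1.

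Jak1, a kinase used by IL-6 and interferon receptors, held the most peaks, 14, of which 10 were from YTHDC1. The gene (ENSMUSG00000028530.14) lies on chromosome 4 at 101152367 to 101265282 on the minus strand, and positions are counted in its transcript with the longest coding sequence, which has 25 exons and 1153 codons. Of 4387 protein-coding genes with a YTHDC1 peak, 49 (1.12%) had at least 10. Jak1 is long, and among 1119 protein-coding genes whose length is within 20% of its own, 411 had a YTHDC1 peak and 9 had at least 10.

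The YTHDC1 peaks of Jak1 began at the gene start and spread through intron 1. The first, at 101265099 to 101265201, had its summit in the 5' UTR in exon 1, 161 nt into the transcript, with a pileup of 9 and a fold of 6.70. Of the 9 intronic peaks, 7 lay in intron 1, which spans 71178 bp and makes up 65.9% of the intron length of Jak1. Their pileups were 7, 11, 3, 13, 58, 6 and 5 in the direction of transcription, and their folds 6.87, 10.3, 3.93, 9.37, 6.76, 6.01 and 5.15. The other 2 were in introns 3 and 22, with pileups of 4 and 2 and folds of 4.91 and 2.94.

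The peak with the largest pileup of all 30 was not the one with the largest fold. At 101231151 to 101231433 in intron 1 of Jak1, 34.04 kb from the gene start, YTHDC1 had a pileup of 58 (exact Poisson 95% interval 44.04 to 74.98), at percentile 97.4 of its list. Its fold of 6.76 stood at percentile 54.7, which corresponds to a local background of 7.73, at percentile 99.3 of the list. This background was computed from the authors' pileup and fold, with an assumed pseudocount of 1, and is not a separate measurement. At the Jak1 peak with the highest fold, at 101258982 to 101259133, the pileup was 11, the background 0.164 and the fold 10.3. Repeats at these intronic places were not checked, and no genome sequence was used here.

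**Figure D2:**
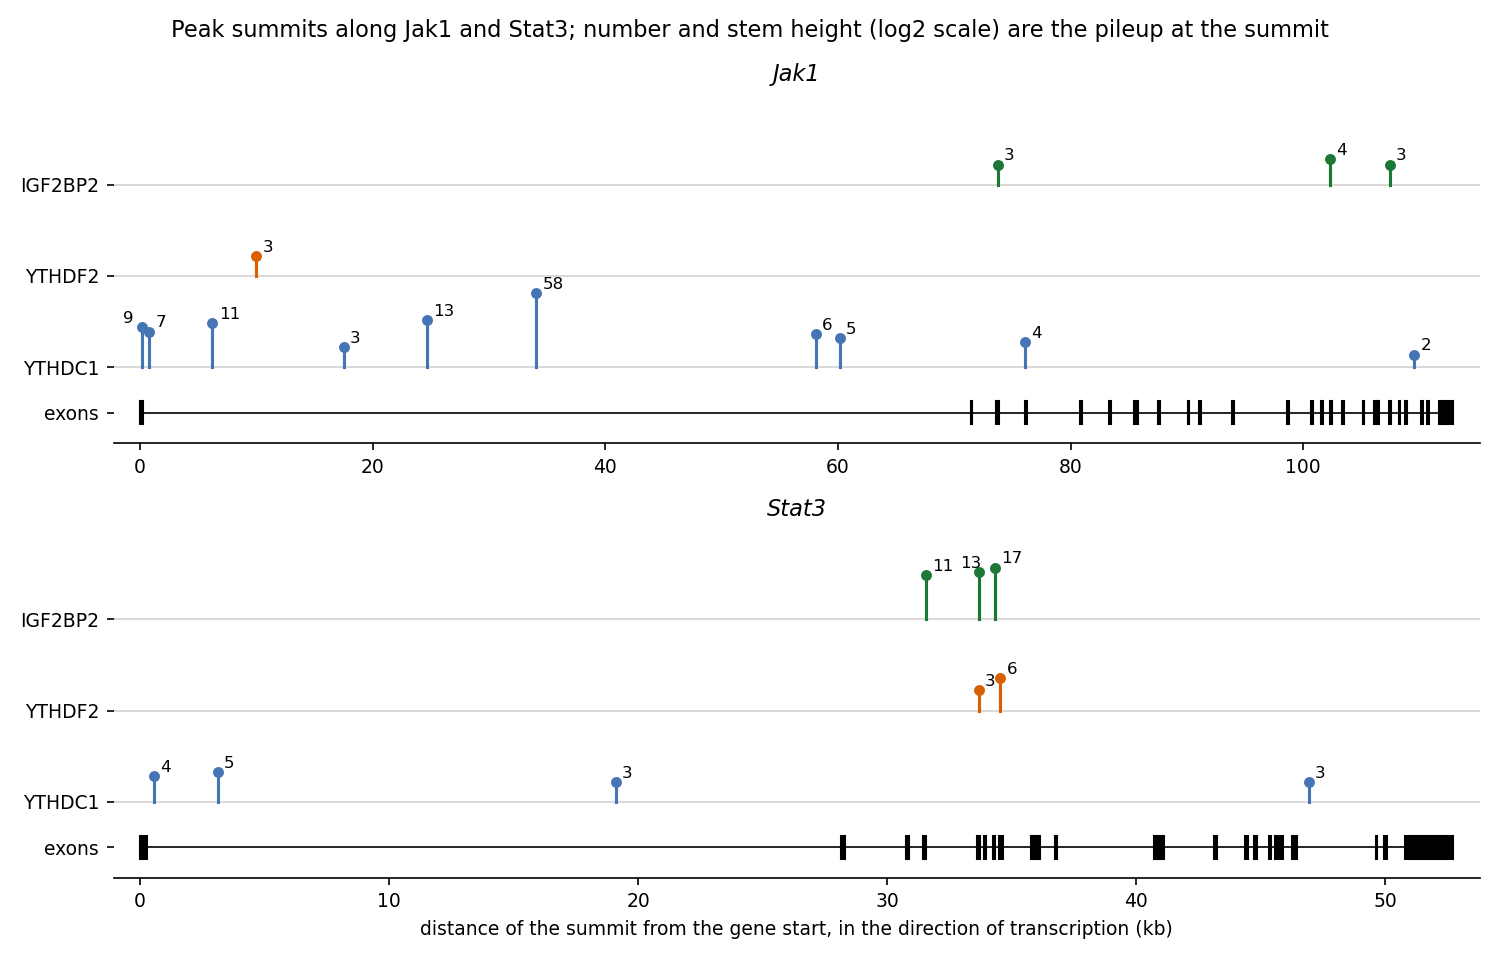
Summits along Jak1 (upper) and Stat3 (lower) by reader, with distance from the gene start in kb, exons as black boxes, and the pileup at the summit as the printed number and the stem height (log2 scale). In Jak1 the YTHDC1 stems lie in exon 1 and introns and those of IGF2BP2 in exons. In Stat3 the IGF2BP2 and YTHDF2 stems lie between 31.55 and 34.53 kb.

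IGF2BP2 had 3 peaks in Jak1, each wholly in 1 coding exon and apart from those of the other readers. They lay at codon 50 in exon 3, codon 670 in exon 15 and codon 913 in exon 20, the last of these in the part that encodes the kinase domain. Their pileups were 3, 4 and 3 and their folds 3.94, 4.93 and 3.94. The single YTHDF2 peak, in intron 1 at 101255217 to 101255316, had a pileup of 3 and a fold of 3.96. None of the 14 Jak1 peaks overlapped a peak of another reader, and the closest pair of summits from different readers was 2104 bp apart.

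Jak2, the kinase of the IL-3 and erythropoietin receptors, held 0 peaks in all 3 lists (ENSMUSG00000024789.13, chromosome 19, 29251828 to 29313080). The nearest summits outside it lay 91117 bp away for YTHDC1, 91126 bp for IGF2BP2 and 2522163 bp for YTHDF2. The coding transcripts of Jak1 and Jak2 are of like length, at 4906 and 5030 nt. Their introns take up 108010 and 56223 bp, of which intron 1 is 71178 and 318 bp. A part of these lengths in the counts was not tested. The depth is unknown, so absence of a peak is not absence of binding.

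Stat3, the transcription factor best known downstream of IL-6, held the 3 highest folds of the set, all in the IGF2BP2 list. By pileup the YTHDC1 peak of 58 in Jak1 was above them. Depth is unknown for each list, so folds and pileups of different lists are not strictly comparable. Stat3 (ENSMUSG00000004040.16) lies on chromosome 11 at 100885098 to 100939540 on the minus strand, and its transcript chosen in the same way has 24 exons and 770 codons. Its 3 IGF2BP2 peaks had pileups of 11, 13 and 17 and folds of 11.8, 13.7 and 17.0, at percentiles 85.5, 88.4 and 92.8 of that list. The last of these was the single peak among the 30 in the top 10% of its list by fold.

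The IGF2BP2 peak in Stat3 with the highest fold spanned 100904913 to 100905286 and had its summit in the coding sequence of exon 7, at codon 214. Its pileup of 17 has an exact Poisson 95% interval of 9.90 to 27.2, and its −log10 q (the authors' p-value adjusted for multiple tests, on a −log10 scale) was 33.1. The next spanned 100905633 to 100906011 with its summit at codon 146 in exon 5 (−log10 q 29.0). The one with the lowest fold, at 100907911 to 100908063, had its summit in intron 4, 1 bp from the nearest annotated exon, and 73 of its 153 bases were exonic. The other 2 peaks each touched 2 exons and ran across the intron between them, with 229 of 374 bases and 138 of 379 bases exonic.

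YTHDF2 had 2 peaks in Stat3, and both coincided with an IGF2BP2 peak. The one at codon 144 in exon 5 had a pileup of 3 and a fold of 3.92, and its summit lay 7 nt from the IGF2BP2 summit. The one at codon 233 in exon 8 had a pileup of 6 and a fold of 6.38 and overlapped the IGF2BP2 peak of exon 7 over 100 bp. Its summit lay 57 nt from that of IGF2BP2 along the spliced transcript and 202 bp along the genome. In ranks these peaks stood lower than those of IGF2BP2, at percentiles 9.44 and 60.8 of the YTHDF2 list. All 4 exonic summits thus fell between codons 144 and 233, in the part of Stat3 that encodes the coiled-coil domain, a surface used in contacts with other proteins.

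The spliced sequence around 3 of these summits is shown because it carries the places that IGF2BP2 and YTHDF2 share. Each is taken from the mRNA strand of the GENCODE M21 transcript, with the summit at the middle base and 50 nt on each side, and capitals mark each GGAC, the core of the m6A motif. The first spans chr11:100905655-100905913, the second chr11:100905013-100905258 and the third chr11:100904956-100905056, all on the minus strand, with 1 exon junction inside the first and the second.
Stat3 exon 5, IGF2BP2: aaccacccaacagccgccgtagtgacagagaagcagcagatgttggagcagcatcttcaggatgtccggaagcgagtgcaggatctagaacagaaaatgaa
Stat3 exon 7, IGF2BP2: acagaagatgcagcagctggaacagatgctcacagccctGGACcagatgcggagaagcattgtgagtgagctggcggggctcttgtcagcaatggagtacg
Stat3 exon 8, YTHDF2: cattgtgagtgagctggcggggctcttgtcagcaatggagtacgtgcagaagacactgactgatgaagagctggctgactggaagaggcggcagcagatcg

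A GGAC lay 11 nt before the exon 7 summit, and the other windows held none. The nearest GGAC to the exon 5 summit began 69 nt after it, and the nearest to the exon 8 summit began 68 nt before it.

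YTHDC1 had 4 peaks in Stat3, all in introns and none near the exons that IGF2BP2 and YTHDF2 shared. Of these, 3 lay in intron 1, which holds 57.8% of the intron length of Stat3, and the fourth in intron 21. Their pileups were 4, 5, 3 and 3 in the direction of transcription, with folds of 4.29, 5.89, 3.93 and 3.92. The nearest distance from a YTHDC1 summit to an IGF2BP2 or YTHDF2 summit was 12376 bp. Stat3 and Stat5a overlap at their 3' ends, and none of the 30 summits lay under more than 1 annotated gene. Jak1 and Stat3 thus both had YTHDC1 peaks in a long first intron, and of this pair only Stat3 had peaks of different readers that coincided.

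Among genes in all 3 lists, the highest folds of Stat3 per list were closest to those of Nfkbia, Sik3, Ppp1r37, Plekho2 and Pola1. Likeness was the distance between log2 values of the highest fold per list over the 3 lists, among 1122 candidates. It was 0.08 for Nfkbia, where Stat3 had folds of 17.0 (IGF2BP2), 6.38 (YTHDF2) and 5.89 (YTHDC1) and Nfkbia had 16.9, 6.70 and 6.03. With 3 points per gene the order of such neighbours has no error estimate.

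Stat6, the factor downstream of IL-4, had 3 IGF2BP2 peaks and 1 YTHDF2 peak, all in coding sequence. The gene (ENSMUSG00000002147.18) lies on chromosome 10 at 127642986 to 127660957 on the plus strand, and its transcript has 837 codons. IGF2BP2 summits lay at codon 89 in exon 4, codon 195 in exon 7 and codon 370 in exon 11, with pileups of 2, 2 and 3 and folds of 2.96, 2.96 and 3.89. These were among the weakest peaks of that list, at percentiles 1.83, 1.83 and 5.54, and a pileup of 2 has an exact Poisson 95% interval of 0.242 to 7.22. The YTHDF2 peak at codon 378 in exon 11 had a pileup of 3 and a fold of 3.91, at percentile 6.47. It overlapped the third IGF2BP2 peak over 93 bp, with summits 25 nt apart.

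Stat5a and Stat5b, the near-identical factors downstream of IL-3 and many other cytokines, had 1 and 2 weak peaks. Stat5a (ENSMUSG00000004043.14, chromosome 11, 100859351 to 100885169, plus strand) had an IGF2BP2 peak at 100861741 to 100861840, with its summit at codon 54 of 797 in exon 3, a pileup of 3 and a fold of 3.94. Stat5b (ENSMUSG00000020919.11, chromosome 11, 100780731 to 100850724, minus strand) had a YTHDF2 peak at 100798310 to 100798409, with its summit at codon 248 of 786 in exon 7, a pileup of 4 and a fold of 4.56. Its YTHDC1 peak lay in intron 17, with a pileup of 3 and a fold of 3.93.

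Which of the pair the Stat5b coding peak belongs to is uncertain. The coding sequences of Stat5a and Stat5b are identical at 90.7% of 2294 aligned bases. Around the Stat5b summit an unbroken run of 324 nt is the same in both transcripts, and it covers all 76 exonic bases of the peak. Fragments from that run could come from either gene. How reads that map to several places were handled is not given in the sources used here. The Stat5a peak is better separated, since its 100 bases differ from Stat5b at 9 aligned positions, with a longest identical run of 71 nt.

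The coding peaks of Stat3, Stat5b and Stat6 included a set at corresponding places. Stat coding sequences were translated, aligned as proteins and mapped back to codons, with the nearest Stat3 codon taken at a gap. This was an alternative view chosen after the positions had been seen. The YTHDF2 summit of Stat3 at codon 233, the IGF2BP2 summit of Stat6 at codon 195 and the YTHDF2 summit of Stat5b at codon 248 corresponded to Stat3 codons 233, 233 and 236. The exonic parts of these peaks covered Stat3 codons 217 to 250 in Stat3, 220 to 266 in Stat6 and 216 to 241 in Stat5b. The other STAT summits corresponded to Stat3 codons 50, 95, 144, 146, 214, 423 and 431. The IGF2BP2 peak of Stat3 with its summit at codon 214 covered codons 188 to 264 and so also lay over this place. The longest identical run between whole coding sequences was 14 nt for Stat3 and Stat5b, 13 nt for Stat3 and Stat6 and 20 nt for Stat5b and Stat6. The set mixes peaks of IGF2BP2 and YTHDF2, and its Stat5b peak may belong to Stat5a. The pileups of 6, 2 and 4 in Stat3, Stat6 and Stat5b are small, with −log10 q of 6.55, 2.89 and 3.25. No test was made of the correspondence.

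The windows of Stat6 and Stat5b at those places, and the Stat6 window shared by IGF2BP2 and YTHDF2, are given for comparison with the exon 8 window of Stat3 above, in the same form. They span chr10:127651158-127651258 on the plus strand, chr11:100798273-100798373 on the minus strand and chr10:127653041-127653275 on the plus strand, the last with 1 exon junction.
Stat6 exon 7, IGF2BP2: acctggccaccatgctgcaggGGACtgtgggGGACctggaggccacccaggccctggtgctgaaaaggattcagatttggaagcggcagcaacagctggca
Stat5b exon 7, YTHDF2: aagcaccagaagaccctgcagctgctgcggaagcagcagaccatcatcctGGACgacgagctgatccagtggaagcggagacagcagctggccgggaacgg
Stat6 exon 11, IGF2BP2: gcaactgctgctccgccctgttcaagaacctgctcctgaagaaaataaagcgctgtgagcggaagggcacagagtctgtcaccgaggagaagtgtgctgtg

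The Stat5b summit itself was the first base of a GGAC, and the Stat6 exon 7 window held 2, the first of which is followed by T to give GGACT. The Stat6 exon 11 window held none. Over all exonic summits in these genes, GGAC lay in 5 of 9 IGF2BP2 windows, 1 of 4 YTHDF2 windows and the single YTHDC1 window, where the share over all such windows of the lists was 42.7%, 41.9% and 42.3%. GGACT lay in 1 of 9, 0 of 4 and 0 of 1, where the shares were 10.8%, 12.0% and 12.1%. GGAC was searched on the mRNA strand alone, and GGACT is a longer form of it.

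**Figure D3:**
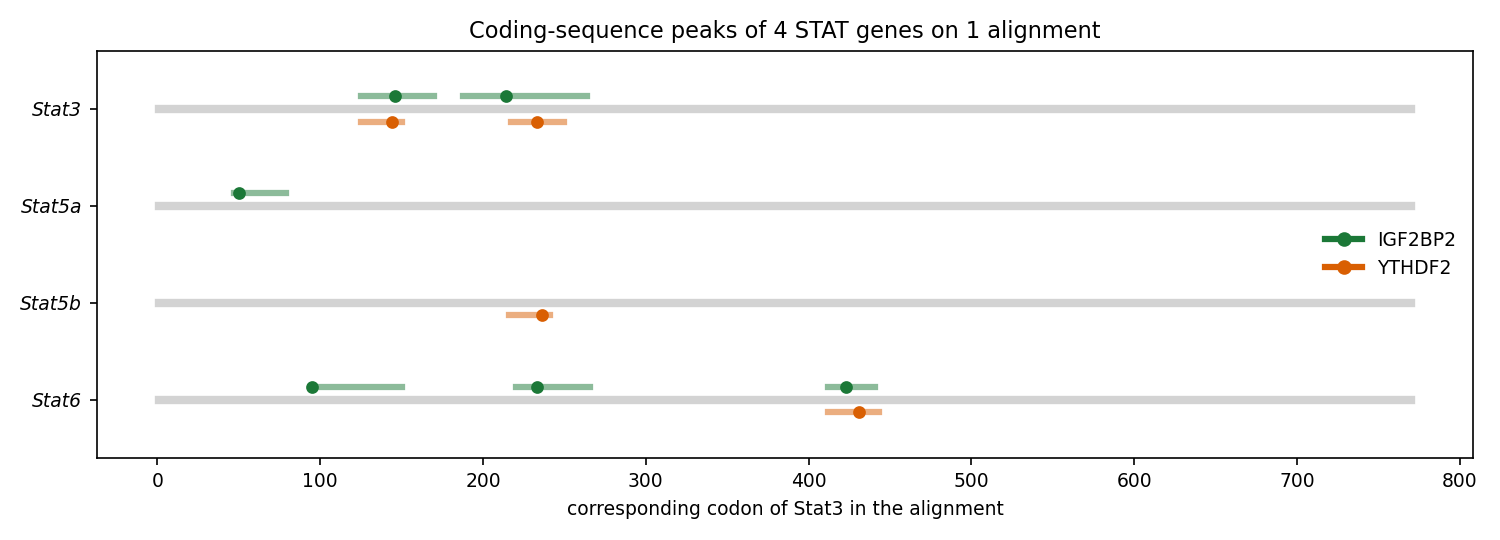
Coding-sequence peaks of Stat3, Stat5a, Stat5b and Stat6 placed on the codon of Stat3 to which they correspond (horizontal axis, codon number), with dots at summits and bars over the exonic span of each peak. Summits of Stat3, Stat5b and Stat6 fall at codons 233 to 236, and no summit lies beyond codon 431.

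Most coding summits of the set lay in the first 50% of the coding sequence, as did most of those in the whole lists. Of 13 such summits, 11 were within the first 50% of the coding sequence, and the other 2 were those of Jak1 at codons 670 and 913. For IGF2BP2 the count was 7 of 9, and for YTHDF2 4 of 4, where the shares over all coding summits of the lists were 57.3% and 55.5%. These counts are small, and 3 of the 4 YTHDF2 summits were in peaks that overlap an IGF2BP2 peak. The difference from the list shares was not tested. None of the 13 lay within 200 nt of a stop codon, and the closest was 723 nt before it. Over the whole lists 6.54% of IGF2BP2 and 9.50% of YTHDF2 coding summits lay that close, so a count of 0 of 13 is near the background. None of the 30 summits lay in a 3' UTR, where 9.78% of IGF2BP2, 12.5% of YTHDF2 and 10.1% of YTHDC1 peaks of the whole lists lay. These list shares count peaks outside genes as well.

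By region, 9 of 10 IGF2BP2 summits and 4 of 5 YTHDF2 summits were in coding sequence, against 45.6% and 47.0% over the whole lists. Of 15 YTHDC1 summits 0 were in coding sequence and 14 in introns, against 25.7% and 37.6% over the whole list. Of these 14, 9 were in Jak1 and 4 in Stat3. Intron 1 held 10 of those 14, where it held 34.4% of intron summits over the whole YTHDC1 list. Intron 1 takes up 28.4% of intron length on average over the genes of those list summits, below its share in Jak1 and Stat3.

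Sharing between readers was confined to IGF2BP2 and YTHDF2 in these genes. Of 10 IGF2BP2 peaks, 3 overlapped a YTHDF2 peak by at least 1 bp, and 3 of 5 YTHDF2 peaks overlapped an IGF2BP2 peak. Of 15 YTHDC1 peaks 0 overlapped a peak of another reader, and 10 of the 15 were in Jak1 and 4 in Stat3. Over the whole lists 46.6% of IGF2BP2, 78.6% of YTHDF2 and 31.1% of YTHDC1 peaks overlapped a peak of some other reader, as did 21.3% of YTHDC1 peaks in introns. The peaks share their genes and their list, so these counts describe 30 places and are not independent draws.

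Stat2, which acts in the response to type I interferon, held 0 peaks in all lists (chromosome 10, 128270559 to 128292849). The feedback inhibitor genes Socs2 (chromosome 10, 95385362 to 95417180) and Socs3 (chromosome 11, 117966079 to 117970047) likewise held 0. Socs2 is known to be induced by STAT5 and Socs3 by STAT3. Their main transcripts are shorter than those of the kinases and STATs, at 2222 and 2552 nt. Those of Stat2 and Jak2, which also held 0 peaks, have 4397 and 5030 nt. A part of transcript length in these counts was not tested. The nearest summits outside Stat2 were 18462 to 18700 bp away, those outside Socs3 18566 bp or more and those outside Socs2 72497 bp or more.

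The other genes of the pathway were read from a list of 64 receptors, kinases, STATs, inhibitors, partners and targets. IGF2BP2 had a peak in 14 of them, YTHDF2 in 8 and YTHDC1 in 29, and 34 had none in any list. As shares of the 64 genes these were 21.9%, 12.5% and 45.3%, where the shares over all protein-coding genes were 12.8%, 7.26% and 19.9%. YTHDC1 alone had a peak in 13, where 9.41% of all genes had one from YTHDC1 alone. Among those with a peak, the highest fold had a median of 5.20 (IGF2BP2), 4.45 (YTHDF2) and 6.88 (YTHDC1), where it was 6.39, 5.86 and 7.05 over all protein-coding genes with a peak. YTHDC1 was the most frequent reader of this list, as it was over all genes. With exon summits alone it still had a peak in 25 of the 64 genes, where 2894 of all 22028 protein-coding genes had one. Of the 9 genes 1 had one. YTHDC1 summits there were mostly intronic and mostly in Jak1 and Stat3.

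Of 24 receptor genes, 2 had an IGF2BP2 peak (8.33%, against 12.8% of all genes), 1 had one of YTHDF2 (4.17%, against 7.26%) and 7 had one of YTHDC1 (29.2%, against 19.9%). These counts are near the shares over all genes. Of the receptors for the cytokines in the medium, Il3ra, the IL-3 receptor alpha chain, had a YTHDC1 fold of 4.39. Csf2rb and Csf2rb2, the near-identical beta chains, had YTHDC1 folds of 4.91 and 3.91, and reads could be split between them. Il6ra had a YTHDC1 fold of 6.87 in the 5' UTR, and Il6st, the shared signalling chain gp130, had 0 peaks.

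Of the remaining JAK and STAT genes, Tyk2, the kinase of interferon and IL-12 receptors, had peaks in all 3 lists, with an IGF2BP2 fold of 3.905, a YTHDF2 fold of 3.94 and a YTHDC1 fold of 4.88. Its YTHDF2 and YTHDC1 peaks coincided in coding sequence. Stat4 had intronic peaks of IGF2BP2 at a fold of 8.37 and of YTHDC1 at 8.71, and these coincided. The value of 8.37 was the highest IGF2BP2 fold of this list. Jak3, the lymphoid kinase, had 1 YTHDC1 peak at a fold of 2.93.

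Of 17 inhibitor genes, IGF2BP2 had a peak in 4 (23.5%, against 12.8% of all genes), YTHDF2 in 1 (5.88%, against 7.26%) and YTHDC1 in 9 (52.9%, against 19.9%). Cbl, a ubiquitin ligase that removes active receptors, had coinciding 3' UTR peaks of all 3 readers with folds of 3.94, 4.94 and 7.85. Socs7 and Cish had a YTHDC1 peak, with folds of 4.29 and 3.92, and Socs1, Socs4, Socs5 and Socs6 had 0. Among partners, the coactivator Crebbp had an IGF2BP2 fold of 6.83, a YTHDF2 fold of 3.96 and a YTHDC1 fold of 10.5, and Ep300 had the highest YTHDC1 fold of the list, 23.9 in its 5' UTR.

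Of 12 target genes, 4 had a peak of IGF2BP2 (33.3%, against 12.8% of all genes), 4 of YTHDF2 (33.3%, against 7.26%) and 6 of YTHDC1 (50%, against 19.9%). Pim1, a kinase gene induced by STAT5, had coinciding 5' UTR peaks of all 3 readers with folds of 6.24, 6.38 and 12.0. Ccnd3, a cyclin gene, had folds of 3.89, 6.38 and 11.7. Mcl1, which protects from apoptosis, had folds of 5.13 for YTHDF2 and 12.3 for YTHDC1 in its coding sequence. Myc had an IGF2BP2 fold of 8.24 in its coding sequence and a YTHDC1 fold of 4.44.

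**Figure D4:**
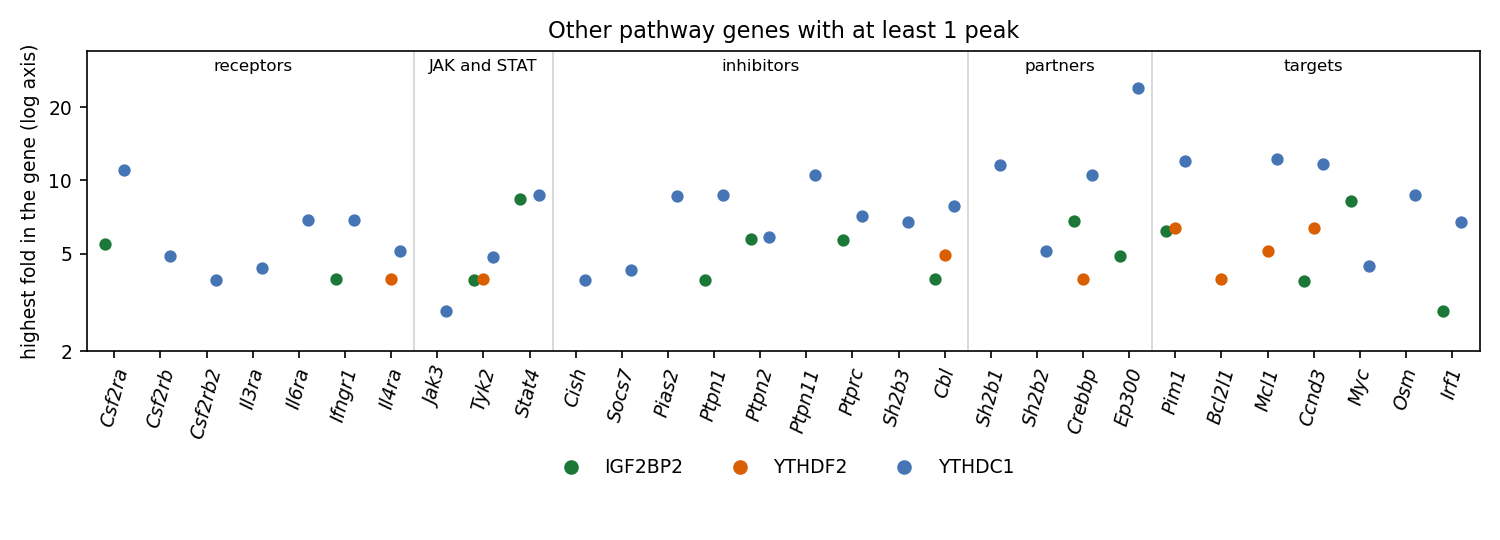
Highest fold per gene (log axis, a ratio without unit) for the 30 of 64 other pathway genes with at least 1 peak, grouped by role, with 1 point per reader that had a peak. YTHDC1 points are present for 29 genes, and the highest is Ep300 at 23.9.

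As a check of the labelled cells, 6 of 9 genes of progenitor and myeloid identity had a peak of some reader, among them Kit (YTHDC1, fold 4.91) and Spi1 (YTHDC1, fold 19.8), while Cd34, Flt3 and Mpo had 0. Of 11 genes of the lineages that a lin- gate removes, 2 had a peak, which is near the 23.8% of all genes with one. Itgam, a myeloid gene, had coinciding 3' UTR peaks of IGF2BP2 (fold 4.93) and YTHDC1 (fold 7.73), and Klrb1c, a natural killer cell gene, had a YTHDC1 fold of 15.7. The other 9, among them the T and B cell genes, had 0. A peak does not measure expression, so these counts do not rank cell types. Sequencing depth is unknown for all 4 libraries, since the lists give no library totals.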

How the data were processed

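RNA immunoprecipitates of IGF2BP2, YTHDF2 and YTHDC1 (1 library each) and an input library were made from lin- c-Kit+ mouse bone marrow cells. Per the labels' protocols, RNA was crosslinked with 3 exposures of 120 mJ per cm2 at 254 nm, and stranded libraries were given 20 PCR cycles and kept between 250 and 450 bp. The submitters' processing notes name GRCm38 and, as tools, HISAT2, Trim Galore and bcl2fastq 2.17. The peak caller is not given in the sources used here. The deposited lists hold for each peak a fold (ratio) over local background, −log10 p-values and q-values, and a score that is 10 times the −log10 q, rounded down. Per the file headers, other columns give each peak its length and its pileup signal. All are the authors' values, from 1 library per list, and no input track was used. The smallest −log10 q was 2.01, 2.05 and 2.02.

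From these, summits (start plus offset) were placed in GENCODE M21 genes. Regions were ranked 3' UTR, 5' UTR, CDS, other exon and intron over all transcripts, and positions were counted in the transcript with the longest complete coding sequence. Overlap means at least 1 bp. Local background was (pileup + 1) / fold − 1. Intervals are exact Poisson at 95%. Sequences are from the GENCODE M21 transcripts, and 0 to 2 exonic summits per list had no sequence there. STAT coding sequences were translated and aligned with MAFFT 7.526, and the alignment was mapped back to codons. Python 3.11.15, pandas 2.3.3, scipy 1.17.1 and Biopython 1.88 were used. Placement was tested on simulated summits in coding sequence only, with CDS ranked first. Placement in introns and UTRs was not tested.

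No test between readers was possible with 1 library each. The genes and lists were chosen with earlier results of these data known. Named in the text are all 9 genes with all their peaks. From the pathway list the rule takes each gene in all 3 lists, the 3 highest folds per list and 5 receptor genes of the medium's cytokines. Socs1, Socs4, Socs5, Socs6, Socs7, Cish and Jak3 were named beyond it as relatives of the 9 genes. The 5 most similar patterns were taken for the gene with the highest summed fold. Alternatives were a minimum of 5 on the −log10 q or on the fold, lists trimmed to equal length, exon summits alone, any overlap with the gene, CDS before UTRs, 50% overlap of both peaks, and summits within 50 bp.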

Additional observations from a re-analysis of the deposited data

How the results depend on the processing

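Counts below are in the order IGF2BP2, YTHDF2 and YTHDC1. Of 77 alternative counts over the 9 genes and the pathway list, 43 stayed within 1.5 times the count reported and 34 did not. Some of the 43 could not move. A count of 0 cannot fall, and the YTHDF2 list is the shortest, so equal list length trims none of its peaks. Fewer peaks enter under the stricter settings, also over all genes. Of 22028 protein-coding genes, 2815, 1599 and 4387 had a peak in the main setting. The −log10 q minimum left 2413, 1274 and 3394 of them, and the fold minimum 1767, 889 and 3182. Equal list length left 1324, 1599 and 1747, and exon summits alone 2119, 1259 and 2894. Among peaks whose −log10 q reached 5, 2, 2 and 2 of the 9 genes had a peak, with 6, 2 and 8 peaks, of which 5, 1 and 0 were in coding sequence and 1, 1 and 0 coincided with another reader. At a fold of at least 5, 1, 1 and 2 genes had a peak, with 3, 1 and 8 peaks, 2, 1 and 0 in coding sequence and 1, 1 and 0 coinciding. Then 1 gene was in all 3 lists, and 7, 3 and 21 pathway genes had a peak. At equal list length (2834 peaks each), 1, 4 and 1 genes had a peak, with 3, 5 and 2 peaks and 2, 4 and 0 in coding sequence. No gene was then in all 3 lists (0), and 2, 8 and 12 pathway genes had a peak. With exon summits alone, YTHDC1 had 1 gene and 1 peak, and 0 genes were in all 3 lists. With 50% overlap of both peaks, 1, 1 and 0 peaks coincided. Any overlap with the gene, and CDS ranked before UTRs, changed no count of the 9 genes. The YTHDC1 counts in coding sequence and of coinciding peaks were 0 under each alternative run. Stricter settings can only remove peaks or overlaps, so a count of 0 could not change under them. No paired analysis was possible because each reader has 1 library, and no library could be left out. Unknown depth limits each statement on a gene without a peak.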
